A study of Canis lupus familiaris with 8 samples.

Results

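The genes described here encode complex II, complex III, cytochrome c, complex IV and ATP synthase of the mitochondrial inner membrane, together with the factors that assemble them. They were found by a rule on gene symbols that uses no measured value. Any probe set of the Canine Genome Array with a single platform symbol that begins with SDHA, SDHB, SDHC, SDHD, SDHAF, UQC, ATP5, or COX or COA and a digit was taken, and so were those of CYC1, CYCS, BCS1L, SCO1, SCO2 and SURF1. The rule found 65 probe sets of 38 genes among 23836 probe sets tested, of which 10549 carried 1 gene symbol and stood for 6540 genes. A further 138 probe sets carried several symbols and 13149 had none listed. Of those with several symbols, 2 held a symbol of the rule and were left out, so that genes such as COX5B are not described. COX6B1 of complex IV and ATP5PF of ATP synthase, which the study lists, had no probe set under their own single symbol in the annotation used here and are not described either.

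The study compared the left ventricle of male mongrel dogs with and without diabetes, with 4 dogs in either group and 1 array per dog. The control dogs, D5, D6, D7 and D8, received no alloxan. The diabetic dogs (DM, dogs 0292, 0294, 1087 and 1111) were injected intravenously with 40 to 60 mg/kg alloxan, a toxin that kills pancreatic beta cells, and the ventricle was collected 4 weeks later. Body weight is given as 23 to 27 kg in the labels of both groups, and all dogs had been instrumented surgically. Only dogs that were hyperglycaemic after the injection entered the DM group, so diabetes and exposure to alloxan go together in these animals. The methods state that RNA of both groups was prepared together. The deposited labels give extraction and labelling steps for the DM dogs only, and they call the material total cardiac cells in control dogs and cardiac cells in DM dogs. No scan date or array batch is given in the labels used here, so a batch of arrays and the diabetic state cannot be told apart.

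Electrons from succinate enter the respiratory chain at complex II, the only member of the chain that is also an enzyme of the citrate cycle. Complex III passes electrons from ubiquinol to cytochrome c, and complex IV hands them to oxygen. Complexes III and IV pump protons, and ATP synthase uses the return of these protons through its membrane part, Fo, to drive ATP formation in its catalytic part, F1. The heart works almost wholly on this pathway, which is why cardiac muscle is packed with mitochondria. Nuclear genes encode every subunit described here, and many are inserted with the help of dedicated assembly factors.

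Values below are normalised levels on the log2 scale, in which 1 unit is a 2-fold step, after the deposited signal of each array had been scaled to a trimmed mean of 500 and quantile normalised, with 16 added. Differences are DM minus control with their limma standard error (SE), and P values are two-sided. The arrays of a group resembled each other to different degrees. The mean correlation of an array with the rest of its group was 0.862 to 0.863 for D5, D6 and D7, 0.773 for D8, 0.550 for 0292 and 0.633 to 0.655 for the remaining DM dogs. The spiked hybridization controls, which are added in equal amounts to every sample, were read from the log2 of the deposited signals, before quantile normalization. They averaged 13.09 to 13.36 in D5, D6 and D7, 15.77 in D8 and 15.17 to 17.72 in the DM dogs. The 3′ probe set of GAPDH exceeded the 5′ one by 3.57 to 5.96 in control dogs and by 0.60 to 3.08 in DM dogs, whereas the same measure for actin was 1.56 to 6.61 and 3.58 to 7.33. The part of these array measures in the results below was not tested, and the medians and the adjusted calls are also given without D8 and 0292.

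Most of the genes were lower in the diabetic heart. Of 65 probe sets, 55 were lower and 10 higher in DM dogs, with a median difference of −1.37 against 0.06 over all probe sets tested. In 32 probe sets the difference had an unadjusted P below 0.05 in the lower direction, as did 8.91% of all probe sets, and 1 did so in the higher direction, as did 7.8% of all. Every DM dog lay below every control dog in 26 probe sets, while no probe set was higher in every DM dog, and over the whole array these shares were 5.87% and 4.93%. After Benjamini-Hochberg adjustment over the array, 0 of the 65 passed a threshold of 0.05, the smallest adjusted P being 0.0608. The same test called 0.0168% of all probe sets lower and 0% higher. Under the criteria of the methods, a nominal P of at most 0.01 in a two-class test with a change of at least 2-fold, 13 of the 65 were lower and 0 higher, where 2.52% and 2.45% of the array met them. The P values of this two-class test left 0 members after adjustment.

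**Figure D1:**
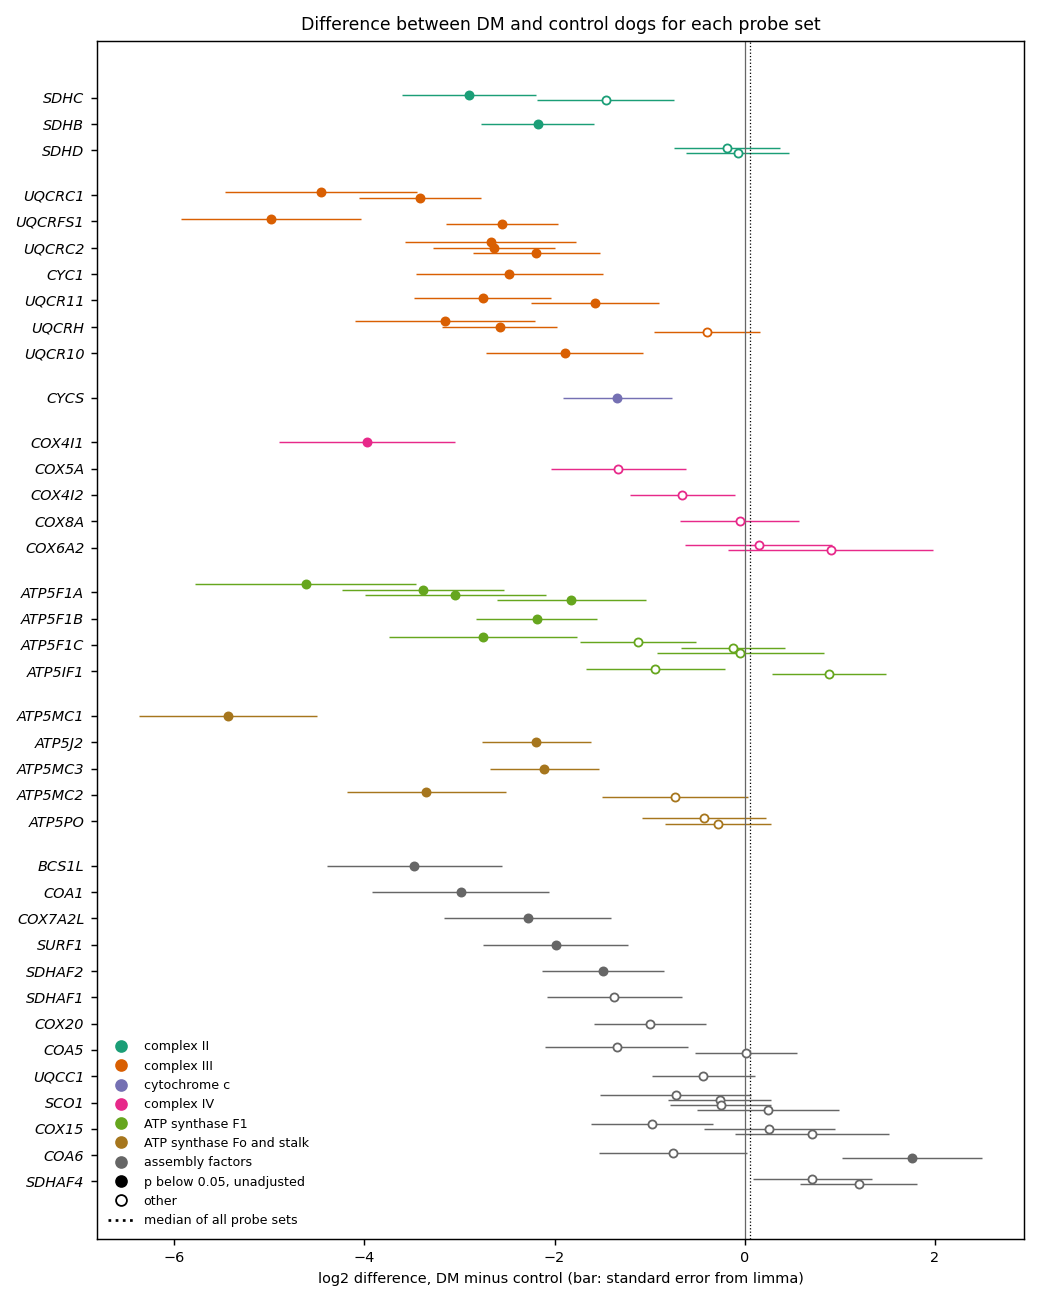
Log2 difference between DM and control dogs (horizontal axis) for each of the 65 probe sets, by gene and coloured by complex, with the limma SE as bars, filled points for an unadjusted P below 0.05 and a dotted line at the median of all probe sets. All 14 probe sets of complex III lie left of 0, while those of the assembly factors spread from −3.47 to 1.76.

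The size of the difference varied from complex to complex, within the genes covered. The median difference was −2.61 over the 14 probe sets of complex III, −2.11 over the 7 of the Fo and stalk part of ATP synthase, −1.82 over the 11 of F1, −1.46 over the 5 of complex II, −0.72 over the 21 of the assembly factors and −0.35 over the 6 of complex IV. The single probe set of cytochrome c stood at −1.34. Without D8 and 0292 the median of all 65 was −1.50, that of complex III −2.70, complex II −2.19, Fo and stalk −2.02, F1 −1.89, complex IV −0.64 and assembly factors −0.36, and cytochrome c stood at −1.08. The order of complex II and ATP synthase was thus turned, and so was that of complex IV and the assembly factors. These medians are descriptions, and differences between complexes were not tested. In complex III, 13 of 14 probe sets had an unadjusted P below 0.05 in the lower direction. The corresponding counts were 2 of 5 in complex II, 1 of 6 in complex IV, 6 of 11 in F1, 4 of 7 in Fo and stalk, and 5 of 21 among assembly factors. Each of these medians stayed below 0 without quantile normalization, with median centring, with cyclic loess and after scaling to the hybridization controls, but single probe sets were less stable, and 16 of the 65 turned sign under at least 1 of these scalings.

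Most of these probe sets were bright. Of the 65 probe sets, 44 lay in the brightest 20% of the array, above a mean of 8.80. Within this bright class the median difference was −1.66 for the members and −0.24 for all probe sets. Unadjusted calls in the lower direction were made for 24 of these 44, beside 17.5% of all probe sets in this class, and calls in the higher direction for 1, beside 10.4%. Groups lay apart in the lower direction for 22 of the 44, beside 14.7%, and in the higher direction for 0, beside 9.38%. The 21 dimmer members had a median of −0.75, beside 0.12 for all dimmer probe sets, and 8 of them had a lower unadjusted call, beside 6.77%.

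**Figure D2:**
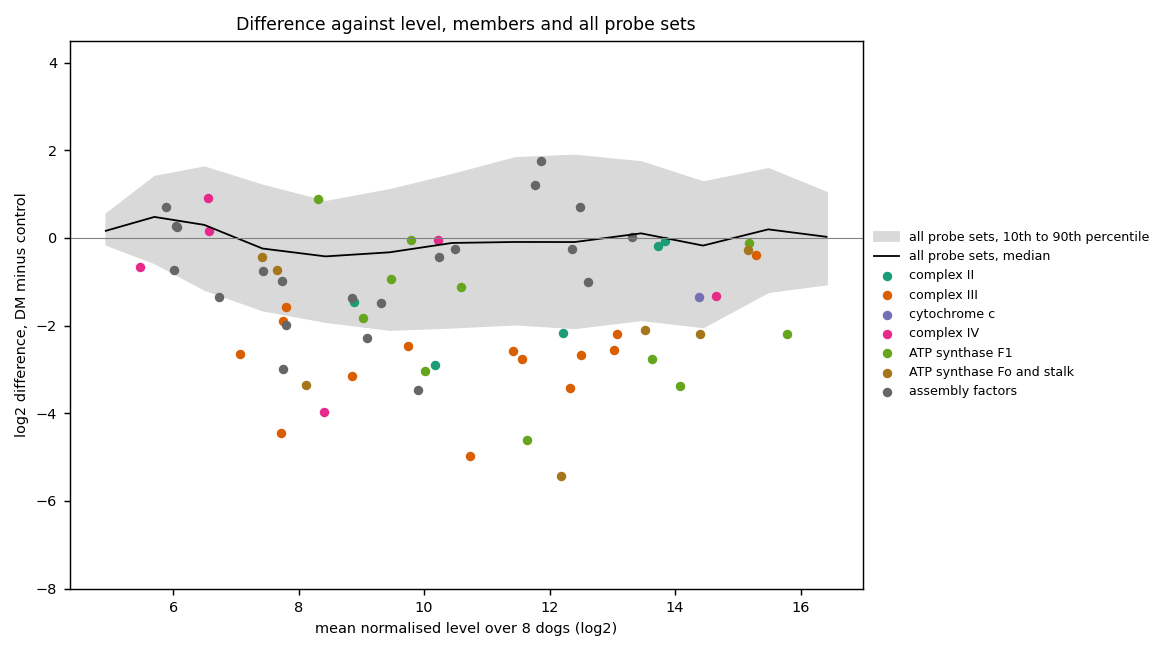
Log2 difference between DM and control dogs (vertical axis) against the mean normalised level over 8 dogs (horizontal axis, log2) for the 65 probe sets, with the median of all probe sets (line) and their central range from the 10th to the 90th percentile (grey). Many members of complexes II and III and of ATP synthase lie below the grey range at low and at high levels alike, while the higher assembly factors lie inside it.

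**Figure D3:**
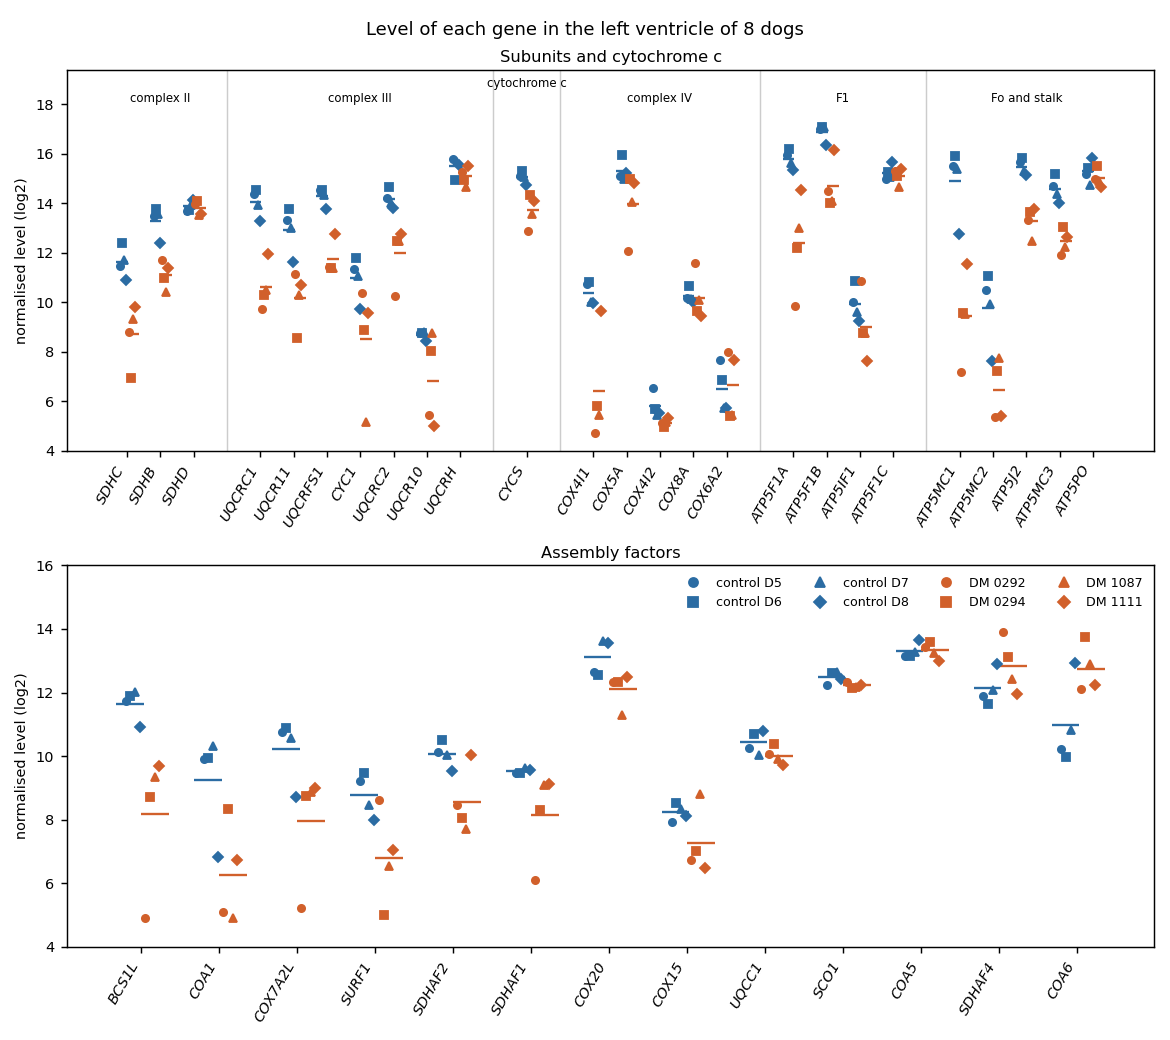
Normalised level (vertical axis, log2) of the brightest probe set of each of the 38 genes in each of 4 control dogs (blue) and 4 DM dogs (orange), with 1 marker shape per dog and a line at the mean of each group. Blue and orange points separate for UQCRC1, SDHB, ATP5J2 and ATP5MC3, and they mix for SDHD, UQCRH and ATP5F1C.

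Complex II was represented by 3 of its subunits, and they differed unequally. SDHB carries the iron-sulphur clusters of the enzyme. Its level was 13.47, 13.78, 13.56 and 12.38 in D5 to D8 and 11.72, 11.00, 10.40 and 11.37 in dogs 0292, 0294, 1087 and 1111, so that all 4 DM dogs lay below all control dogs. The difference was −2.18 ± 0.60 (adjusted P = 0.111). SDHC is 1 of the 2 membrane anchors that bind ubiquinone. It read 11.45, 12.41, 11.72 and 10.91 in control dogs and 8.80, 6.95, 9.32 and 9.83 in DM dogs, again without overlap (−2.90 ± 0.71, adjusted P = 0.0881). A second SDHC probe set differed by −1.46 and its groups overlapped. SDHD, the other anchor, was level in comparison. It gave 13.69, 13.73, 13.91 and 14.15 in control dogs and 13.98, 14.10, 13.54 and 13.58 in DM dogs, a difference of −0.07 ± 0.54 (adjusted P = 0.959) whose sign turned without quantile normalization. Its other probe set gave −0.18 with an SE of 0.56, so both SDHD probe sets stayed within their error while those of SDHB and SDHC ran from −2.90 to −1.46. SDHA, the flavoprotein subunit, had no probe set under its own symbol here.

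Complex III showed the most uniform pattern, with 9 of 14 probe sets free of overlap between the groups. UQCRC1 is a core subunit that faces the matrix. In the deposited signals, which share a trimmed mean but were not quantile normalised, it read 16042, 14770, 12682 and 11250 in D5 to D8 and 994, 991, 1240 and 4601 in dogs 0292, 0294, 1087 and 1111. On the log2 scale the values were 14.39, 14.55, 13.93 and 13.29 in control dogs against 9.73, 10.31, 10.51 and 11.95 in DM dogs. That is a difference of −3.41 ± 0.64, or 10.7-fold lower, with an adjusted P of 0.0608. The highest DM value, of dog 1111, was still below the lowest control value, of D8. A dimmer UQCRC1 probe set agreed in direction (−4.46 ± 1.01, adjusted P = 0.0816), with 11.38, 11.61, 10.61 and 6.21 in control dogs and 5.14 to 6.17 in DM dogs, of which 3 were under 6.12, the upper bound of the dimmest 20% of the array. In that probe set D8 sat beside the DM dogs and away from the other control dogs.

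UQCRFS1 encodes the Rieske protein, the iron-sulphur subunit that hands electrons on to cytochrome c1. Its brighter probe set read 14.52, 14.54, 14.34 and 13.79 in control dogs and 11.42, 11.40, 11.38 and 12.78 in DM dogs (−2.55 ± 0.59, adjusted P = 0.0816). Dogs 0292, 0294 and 1087 were nearly identical here after normalization, and 1111 stood above them. The deposited signals were further apart, at 1707, 2283 and 2558 in these dogs and 8519 in 1111. The other UQCRFS1 probe set had a difference of −4.99 ± 0.95 (adjusted P = 0.0608), from 12.62 to 13.74 in control dogs to 5.64 to 11.21 in DM dogs. UQCRC2 is the second core subunit, and all 3 of its probe sets separated the groups. The brightest read 14.21, 14.65, 14.03 and 13.83 against 10.26, 12.47, 12.48 and 12.74 (−2.19 ± 0.66, adjusted P = 0.137), and the others gave −2.64 and −2.67. Dog 0292 was far below the other DM dogs in the brightest probe set.

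The smaller subunits behaved alike, with exceptions. UQCR11, a small subunit, read 13.33, 13.76, 13.01 and 11.63 in control dogs and 11.14, 8.58, 10.30 and 10.69 in DM dogs (−2.76 ± 0.72, adjusted P = 0.0996), without overlap. Its second probe set differed by −1.57. CYC1 is the haem protein cytochrome c1. Its values were 11.34, 11.79, 11.06 and 9.72 in control dogs and 10.40, 8.90, 5.15 and 9.57 in DM dogs (−2.47 ± 0.99, adjusted P = 0.234), and the groups met through D8 and 0292. UQCR10 differed by −1.89 (adjusted P = 0.269). UQCRH, the hinge protein that lies between cytochrome c1 and cytochrome c, gave no single answer. Its brightest probe set read 15.80, 14.94, 15.68 and 15.56 in control dogs and 15.28, 14.94, 14.66 and 15.52 in DM dogs (−0.40 ± 0.56, adjusted P = 0.761), with a sign that turned without quantile normalization and with median centring. A second read 12.71, 13.17, 12.77 and 12.18 against 9.34, 9.77, 10.16 and 11.24 (−2.58 ± 0.61, adjusted P = 0.0867) without overlap, and the third gave −3.15 ± 0.95 with overlap.

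CYCS, cytochrome c itself, is the soluble carrier between complexes III and IV. It read 15.12, 15.29, 15.08 and 14.72 in control dogs and 12.88, 14.33, 13.55 and 14.08 in DM dogs. Groups did not overlap, and the difference of −1.34 ± 0.57 was 2.53-fold (adjusted P = 0.261). The deposited signals did overlap, since dog 0294 at 29761 exceeded D5, D6 and D7, and the difference was −0.75 without quantile normalization.

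Complex IV was the least uniform of the chain, and only 5 of its subunit genes were covered by the rule, none of them mitochondrially encoded. COX4I1 is the general isoform of subunit 4. It read 10.73, 10.84, 10.00 and 9.99 in control dogs and 4.72, 5.83, 5.46 and 9.65 in DM dogs (−3.97 ± 0.92, adjusted P = 0.0829). Dog 1111 lay within 0.40 of the lowest control dogs, so the difference rested on the other 3 DM dogs, whose values were in the dimmest 20% of the array. Its size therefore moved with the offset, from −4.58 with an offset of 0 to −3.15 with 64, and no fold is given. The groups overlapped with median centring. COX4I2, the isoform of subunit 4 that is known from lung and hypoxia, was dim on every array, with 6.53, 5.67, 5.44 and 5.55 against 5.13, 4.96, 5.15 and 5.33 (−0.65 ± 0.55, adjusted P = 0.584). Its groups did not overlap here but did without quantile normalization, and only D5 exceeded the bound of 6.12.

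COX5A, a subunit on the matrix side, gave 15.10, 15.97, 14.97 and 15.22 in control dogs and 12.07, 14.99, 14.07 and 14.82 in DM dogs (−1.33 ± 0.71, adjusted P = 0.369). Dog 0292 accounted for the lowest value, and 0294 reached the control range. The difference was −0.62 without 0292 and −0.49 without quantile normalization. COX6A2, the heart and skeletal muscle isoform of subunit 6A, was low and scattered, with 7.68, 6.86, 5.73 and 5.72 against 8.02, 5.42, 5.47 and 7.67 (0.15 ± 0.77, adjusted P = 0.942), and its sign turned with median centring and with scaling to the hybridization controls. Its second probe set gave 0.91, with a sign that turned in the last of these. COX8A, a small membrane subunit, gave −0.05 (adjusted P = 0.976). No COX6A2 or COX8A probe set thus differed beyond its error.

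In F1, the alpha and beta subunits were lower and the gamma subunit was not settled. ATP5F1B encodes the beta subunit, which holds the catalytic sites. Its level was 17.01, 17.10, 17.08 and 16.34 in control dogs and 14.50, 14.02, 14.09 and 16.17 in DM dogs (−2.19 ± 0.64, adjusted P = 0.126). D8 and 1111 approached each other, at 16.34 and 16.17, while the remaining dogs were well apart. This separation depended on the normalization, because the deposited signal of 1111 (68296) exceeded those of D5, D6 and D7 (28357 to 36007). D8 had the highest deposited signal of all dogs, at 99612, and became the lowest control dog only after quantile normalization. The difference was −0.67 without quantile normalization and −1.27 with median centring. ATP5F1A encodes the alpha subunit, and its brightest probe set read 15.94, 16.19, 15.64 and 15.35 in control dogs and 9.85, 12.20, 13.01 and 14.52 in DM dogs (−3.39 ± 0.85, adjusted P = 0.0923). The other 3 ATP5F1A probe sets differed by −4.62, −3.04 and −1.82, and 3 of the 4 separated the groups. The brightest did not do so without quantile normalization (−2.26) or with median centring.

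ATP5F1C encodes the gamma subunit, the central shaft. Its brightest probe set gave 14.99, 15.25, 15.05 and 15.68 in control dogs and 15.31, 15.11, 14.67 and 15.41 in DM dogs (−0.12 ± 0.55, adjusted P = 0.933), and the sign turned without quantile normalization and with median centring. A probe set of nearly the same control level read 14.96, 15.48, 14.71 and 14.90 against 8.69, 13.32, 12.75 and 14.29 (−2.75 ± 0.99, adjusted P = 0.192), with no overlap here but with overlap without quantile normalization and with median centring. The remaining ATP5F1C probe sets gave −1.12 without overlap and −0.05 with overlap. ATP5IF1, the inhibitor that blocks ATP hydrolysis by F1 when the proton gradient fails, read 10.01, 10.87, 9.60 and 9.26 in control dogs and 10.85, 8.76, 8.75 and 7.62 in DM dogs (−0.94 ± 0.73, adjusted P = 0.548). Its second probe set lay on the other side of 0, at 0.89, except after scaling to the hybridization controls. The inhibitor thus gave no common direction.

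In the Fo and stalk part of ATP synthase all 7 probe sets were lower in DM dogs, with 5 of 7 without quantile normalization and 6 of 7 with median centring. ATP5MC1, ATP5MC2 and ATP5MC3 encode the same mature subunit c, the unit of the rotating ring, behind different import sequences. ATP5MC1 had deposited signals of 23083, 21134, 23057 and 7165 in D5 to D8 and of 246, 652, 591 and 3482 in dogs 0292, 0294, 1087 and 1111. After normalization it read 15.51, 15.92, 15.40 and 12.75 against 7.17, 9.56, 9.54 and 11.56, and the groups did not overlap. The difference was −5.43 ± 0.94, or 43.2-fold lower (adjusted P = 0.0608). It was −4.43 without quantile normalization, −5.02 with median centring and −4.19 with cyclic loess, where the dimmer probe set of UQCRC1 differed by more, at −4.53, −5.12 and −4.57. D8 was lower than the other control dogs by more than 2 units, and 1111 was the highest DM dog.

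ATP5MC3 read 14.71, 15.17, 14.38 and 14.03 in control dogs and 11.92, 13.05, 12.24 and 12.65 in DM dogs (−2.11 ± 0.57, adjusted P = 0.111), also without overlap. ATP5MC2 read 10.51, 11.07, 9.95 and 7.63 against 5.38, 7.21, 7.75 and 5.43 (−3.35 ± 0.84, adjusted P = 0.0923), where D8 lay among the DM dogs, and a second ATP5MC2 probe set gave −0.73. ATP5J2 encodes subunit f of Fo. It read 15.68, 15.83, 15.31 and 15.13 in control dogs and 13.32, 13.63, 12.47 and 13.76 in DM dogs (−2.19 ± 0.57, adjusted P = 0.0997), a gap of more than 1 unit between the groups. The deposited signals were closer, with a lowest control value of 20916 (D6) and a highest DM value of 16779 (1111). Without quantile normalization the ATP5J2 difference was −1.44, and the groups still did not overlap. ATP5PO, the stalk protein that confers sensitivity to oligomycin, gave −0.28 and −0.43 in its 2 probe sets, and both turned sign without quantile normalization.

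Isoforms were also set against each other within each dog. This cancels a factor common to an array, but no floor under dim values and no array effect that varies with the level. Of 6 isoform pairs listed, 3 had both members on the array, and the test between DM and control dogs was an exact permutation of the 70 possible assignments, in which the lowest two-sided P is 0.0286. ATP5MC1 minus ATP5MC3 averaged 0.32 ± 1.07 (SD, n = 4) in control dogs and −3.01 ± 1.53 (SD, n = 4) in DM dogs, a difference of −3.33 (exact permutation P = 0.0571, adjusted P = 0.0857 over the 3 pairs). COX4I2 minus COX4I1 averaged −4.59 ± 0.41 (SD, n = 4) in control dogs and −1.27 ± 2.10 (SD, n = 4) in DM dogs, a difference of 3.32 with the same exact permutation P of 0.0571 (adjusted P = 0.0857). Since COX4I2 was dim in 7 of 8 dogs and COX4I1 in 3 DM dogs, this pair carries no more than the difference of COX4I1 itself. ATP5MC2 minus ATP5MC3 differed by −1.24 (exact permutation P = 0.171). None of the 3 passed. For ATP5MC1 minus ATP5MC3 the groups met through D8 (−1.28) and 1111 (−1.09), and for COX4I2 minus COX4I1 dog 1111 (−4.32) lay within the control range.

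Assembly factors comprised lower, level and higher genes. BCS1L, the chaperone that inserts the Rieske protein into complex III, read 11.75, 11.90, 12.001 and 10.92 in control dogs and 4.92, 8.72, 9.35 and 9.68 in DM dogs (−3.47 ± 0.92, adjusted P = 0.105), without overlap. Its client UQCRFS1 is among the lower genes given above. COA1, a factor for the translation and assembly of complex IV, read 9.90, 9.95, 10.31 and 6.81 against 5.09, 8.32, 4.90 and 6.72 (−2.98 ± 0.93, adjusted P = 0.143). SURF1, needed for the early assembly of complex IV and mutated in Leigh syndrome, read 9.23, 9.48, 8.46 and 7.996 against 8.62, 5.01, 6.54 and 7.06 (−1.99 ± 0.76, adjusted P = 0.217). In COA1 it was D8, and in SURF1 dog 0292, that closed the gap between the groups.

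COX7A2L, which takes part in joining complexes III and IV into supercomplexes, read 10.75, 10.88, 10.57 and 8.71 in control dogs and 5.22, 8.73, 8.86 and 8.98 in DM dogs (−2.28 ± 0.88, adjusted P = 0.219). The complex II factors SDHAF1 and SDHAF2 gave −1.37 and −1.49, and COX20, a factor for subunit 2 of complex IV, gave −0.995. The groups of SDHAF1 and COX20 did not overlap, although those of COX20 did without quantile normalization and with median centring. UQCC1, a complex III factor, gave −0.43.

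Higher values in DM dogs came from assembly factors for the most part, and none passed adjustment. COA6, a copper-handling factor of complex IV, read 10.23, 9.97, 10.81 and 12.92 in control dogs and 12.10, 13.74, 12.91 and 12.25 in DM dogs. The difference of 1.76 ± 0.74 (adjusted P = 0.250) was the 1 unadjusted call in the higher direction among the 65 probe sets, and it turned sign only in the scaling to the hybridization controls among the scalings tried. D8 was as high as the DM dogs, and the other 3 control dogs lay below all of them. The second COA6 probe set gave −0.75. SDHAF4, which helps SDHA reach its partner, read 11.89, 11.65, 12.08 and 12.91 against 13.90, 13.10, 12.42 and 11.96 (0.71 ± 0.62, adjusted P = 0.599), with a sign that turned with median centring and hybridization control scaling, and its other probe set gave 1.20. COA5 read 13.14, 13.16, 13.26 and 13.67 against 13.45, 13.60, 13.25 and 13.01 (0.02 ± 0.54, adjusted P = 0.992), and its sign turned with median centring, cyclic loess and hybridization control scaling.

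Probe sets of the same gene often disagreed. Of the 38 genes, 18 had several probe sets. In 11 all were lower in DM dogs, in 2 (COX6A2 and SDHAF4) all were higher, and in 5 (ATP5IF1, COA5, COA6, COX15 and SCO1) the signs were mixed. The median distance between the extreme probe sets of a gene was 1.40 in these 18 genes and 1.35 in the 2349 genes of the array with several probe sets. With 1 probe set per gene, the brightest, 34 genes were lower and 4 higher in DM dogs and the median was −1.69, and 21 had a lower unadjusted call. With the mean of the probe sets of each gene, the median was −1.94. UQCRH and ATP5F1C are thus uncertain, since the brightest probe set differed from both others of UQCRH and from 2 of the 3 others of ATP5F1C. Names of probe sets that end in _s_at or _x_at mark probes that can match more than 1 transcript.

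**Figure D4:**
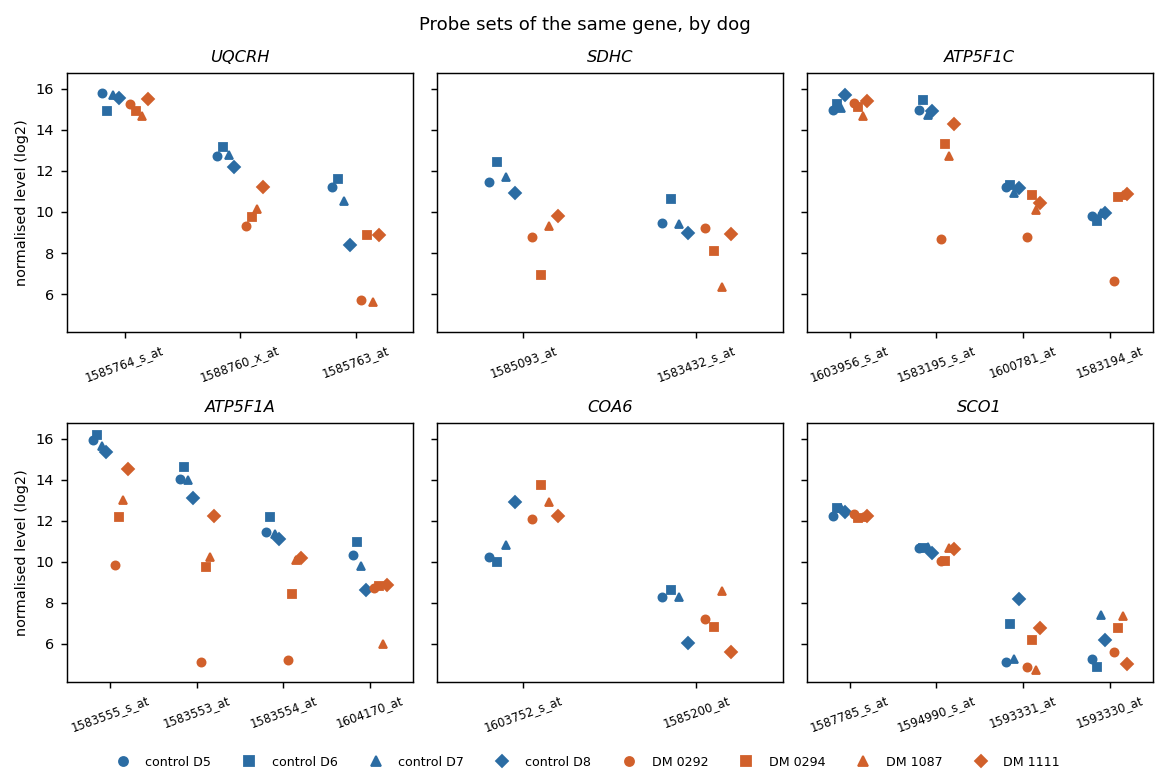
Normalised level (vertical axis, log2) in each control dog (blue) and DM dog (orange) for every probe set (horizontal axis) of 6 genes. The 4 ATP5F1A probe sets have lower means in DM dogs, while the brightest probe set of UQCRH stays level and both dimmer ones are lower, ATP5F1C has 2 level and 2 lower probe sets, and for COA6 both directions occur.

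The dogs of either group were not alike. D8 had the lowest control value in 38 of the 65 probe sets, or 58.5%, while it did so in 34.8% of all probe sets. Relative to the mean of D5, D6 and D7, the median member was at −0.52 in D8, −2.01 in 0292, −1.60 in 0294, −1.57 in 1087 and −0.89 in 1111. Over all probe sets the same medians lay between 0.00 and 0.04. The DM dogs lay below all of D5, D6 and D7 in 45 (0292), 48 (0294), 48 (1087) and 47 (1111) of the 65 probe sets, and D8 did so in 38. Over all probe sets these shares were 39.1%, 37.0%, 36.8%, 35.4% and, for D8, 34.8%. Dog 1111 had the highest DM value in 28 of the 65, against 22.4% of all probe sets, and D6 the highest control value in 38, against 22.0%. Among these 5 dogs, 1111 had the lowest mean of hybridization controls, 15.17, next to D8 at 15.77, and both had the smallest shifts of the members. The part of the arrays in this order was not tested.

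**Figure D5:**
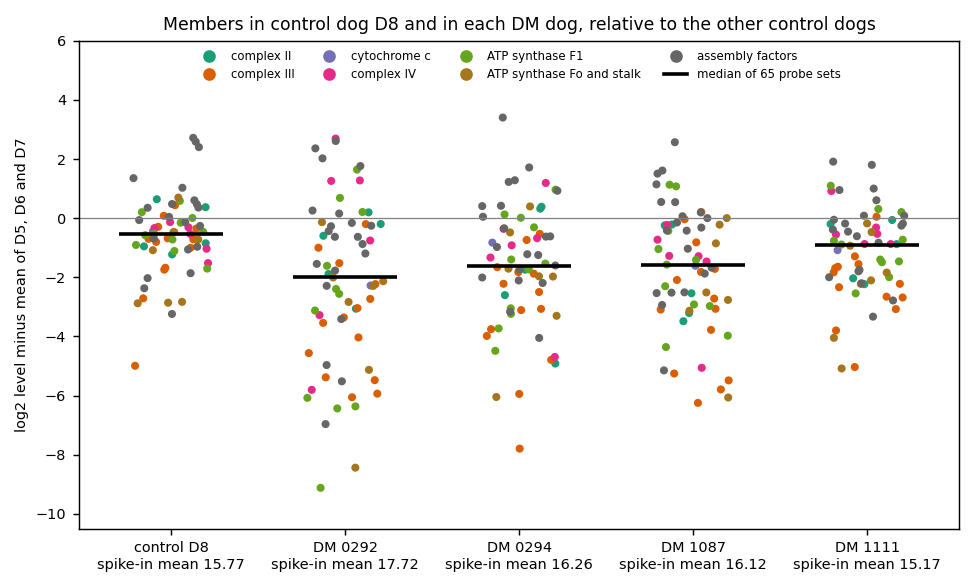
Level of each of the 65 probe sets in control dog D8 and in each DM dog, minus its mean in D5, D6 and D7 (vertical axis, log2), coloured by complex, with the median as a black line and the mean of the spiked hybridization controls (log2 of the deposited signals) under each dog. Medians are −0.52 in D8 and between −2.01 and −0.89 in the DM dogs.

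Single dogs and the choice of scaling decided whether any gene passed the adjusted threshold. Without D8, 5 probe sets were lower past it, beside 0.906% of the array, and without 1111 there were 9, beside 1.49%. Without both D8 and 0292, a choice made after the data had been seen, 11 were lower, beside 2.01%, and COA6 was higher, beside 1.98% of the array. With an offset of 64 in place of 16, 15 were lower, beside 1.31%, and with an intensity trend in the variance of limma 22 were lower, beside 2.21%. Median centring gave 9, beside 0.936%, cyclic loess 1, beside 0.0713%, and scaling to the hybridization controls 49, beside 32.2%. Setting that last scaling aside, 24 different probe sets passed in at least 1 of these 7 settings. ATP5MC1 passed in all 7 and the brighter UQCRC1 probe set in 6, followed by the dimmer UQCRC1 and UQCRFS1 probe sets in 5. Complex III supplied 9 of the 22 calls made with the intensity trend.

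Other genes of the pathway, taken from lists of subunits, electron carriers and assembly factors outside the rule, were covered for 9 of 24 names. Of these 9 genes, each by its brightest probe set, 8 were lower in DM dogs, 4 with an unadjusted P below 0.05 and 0 after adjustment, and the median was −1.26. Over all 23 probe sets of these genes, 10 had a lower and 1 a higher unadjusted call, beside 8.91% and 7.8% of all probe sets tested. HIGD2A, an assembly factor of complex IV, read 10.85, 11.16, 11.15 and 10.97 in control dogs and 8.29, 8.14, 6.82 and 9.59 in DM dogs (−2.82 ± 0.65, adjusted P = 0.082). HIGD1A, its relative, gave −2.21 and OXA1L, which inserts proteins into the inner membrane, −1.77, and ETFDH, which feeds electrons from fatty acid oxidation to ubiquinone, −1.65. All 4 separated the groups, and so did NDUFA4, a subunit outside the rule and the brightest of the 9 genes. NDUFA4 read 15.26, 15.68, 15.58 and 16.07 in control dogs and 14.26, 14.63, 14.32 and 15.15 in DM dogs (−1.06 ± 0.55, adjusted P = 0.358). Groups thus lay apart in the lower direction for 5 of the 9 genes, beside 5.87% of all probe sets. ETFA, a subunit of the electron carrier upstream of ETFDH, gave −0.12 ± 0.67, and LYRM7, a partner of the Rieske protein, gave 0.69 ± 0.69.

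Of 19 regulators of respiratory chain transcription and of mitochondrial DNA listed, 11 were on the array with a symbol. In DM dogs 8 were lower and 3 higher, 3 had a lower unadjusted P below 0.05, 0 passed adjustment, and the median was −1.06. Over all 21 probe sets of these genes, 4 had a lower and 0 a higher unadjusted call, beside 8.91% and 7.8% of all probe sets tested. Groups lay apart in the lower direction for 2 of the 11 genes, beside 5.87% of all probe sets. PPARA, the receptor for fatty acids that drives their oxidation, read 9.94, 10.07, 10.27 and 11.16 in control dogs and 8.08, 8.54, 9.18 and 9.86 in DM dogs (−1.45 ± 0.61, adjusted P = 0.257). PPRC1, a coactivator of the PGC-1 family, gave −2.09 ± 0.64 (adjusted P = 0.139), also without overlap. PPARGC1A, which encodes PGC-1 alpha, read 8.10, 8.37, 7.53 and 8.07 against 5.50, 8.88, 4.86 and 5.64 (−1.80 ± 0.81, adjusted P = 0.287), so that 3 DM dogs were below the control range and 0294 was above it. TFB2M, a factor of mitochondrial transcription, gave 1.09 ± 0.60 (adjusted P = 0.384).

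Markers of cardiac cell types differed along with these genes. MYH7, the beta myosin heavy chain of cardiomyocytes, was at 16.78 to 17.00 in control dogs and 15.83 to 16.76 in DM dogs. Of 14 cardiomyocyte markers, 10 were measured and all 10 were lower in DM dogs (8 to 10 under the other scalings), 8 with an unadjusted P below 0.05, with a median of −2.59. These counts use 1 probe set per gene. Over all 41 probe sets of the 10 genes, 14 had a lower and 4 a higher unadjusted call, beside 8.91% and 7.8% of all probe sets tested. MYL3, a myosin light chain, was in the dimmest 20% of the array in D8 and 1087. The log2 of the summed level of the 10 was 18.14 to 19.42 in control dogs and 16.94 to 17.75 in DM dogs. All 8 macrophage and monocyte markers were measured, of which 6 were higher and 3 had a higher unadjusted call, with a median of 0.99 that became −0.91 after scaling to the hybridization controls, and summed levels were 12.04 to 13.33 against 14.59 to 16.73. LYZ, lysozyme, was 10.66 to 12.72 in control dogs and 14.08 to 16.34 in DM dogs, SPP1, osteopontin, was 8.67 to 9.72 and 11.96 to 13.98, and AIF1 stayed in the dim range on every array. CD163 and CD68 gave 1.62 and 1.47, C1QA gave 0.33, and CSF1R and CD14 were lower, at −1.20 and −1.10. Of the 8 markers LYZ was the brightest in every DM dog, so the summed levels of these dogs mostly follow it. Endothelial markers (5 of 8 measured) summed to 14.62 to 15.41 against 13.36 to 15.54. By gene, 4 of these 5 were lower and 1 higher, 1 had a lower unadjusted call, and the median was −1.20. Fibroblast markers had a median of −0.73 over 6 genes, and those of smooth muscle cells and pericytes −0.93 over 3. In bulk tissue, fewer cells of a type and less RNA per cell cannot be told apart, and the part of cell composition in the lower levels of the respiratory chain genes was not tested.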

How the data were processed

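Left ventricular RNA was hybridised to 1 Affymetrix Canine Genome Array per dog. The authors made the deposited signal intensities, which are on a linear scale, with MAS5, 1 value per probe set, scaled to a trimmed mean of 500 (2% at either end). The RMA normalization named in the methods is not in these values. Arrays were quantile normalised, 16 was added and log2 taken. Of 23913 probe sets, 77 manufacturer's controls were left out of testing, and 18 hybridization controls served as array measures. DM and control dogs were compared by limma 3.58.1 (lmFit, eBayes) in R 4.3.3, adjusted over 23836 probe sets by Benjamini-Hochberg, with the group as the only term. A t-test followed the criteria of the methods. The number of arrays limits the precision. Steps were tested on simulated data.

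All 38 symbols matched the RefSeq gene table. A gene is represented by its brightest probe set over the 8 dogs. Values in every dog are given for the 4 genes with the smallest P in each complex or role, the 4 largest increases, and the members that the study itself lists. Other genes and probe sets were added after their values had been seen. Members and lists were chosen with earlier results of these data known. Alternatives were other scalings and offsets, no dim probe sets, an intensity trend and leaving out single dogs. Sequences, coordinates and promoters were not analysed here.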

Additional observations from a re-analysis of the deposited data

Results flagged for a closer look

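Among the values of the 29 named genes, taken in control and DM dogs separately (58 groups of 4), 7 groups held a dog whose gap to its nearest neighbour exceeded, as a share of the range of the group, the critical value of Dixon's test. Chance flags about 1 in 20 groups. In control dogs it was D8 each time, as the lowest value, for ATP5F1B (gap 0.890 of the range), ATP5MC1 (0.835), COA1 (0.882) and COX7A2L (0.859). The flags rest on quantile normalised values. In the deposited signals of ATP5F1B, D8 was the highest control dog, at 99612 against 28357 to 36007 in D5, D6 and D7. In DM dogs it was 0292 as the lowest for UQCRC2 (0.891) and COX7A2L (0.932), and 1111 as the highest for UQCRFS1 (0.965). For UQCRFS1 the other DM dogs lay closer together after normalization than in the deposited signals, on which the test was not run.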

How the results depend on the processing

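No probe set of these genes passed the adjusted limma test in the setting reported, and the number that did so in the lower direction was 9 with median centring, 1 with cyclic loess, 49 with scaling to the hybridization controls, 15 with an offset of 64, 22 with an intensity trend and 11 without D8 and 0292, where 1 was higher. That number was 0 without quantile normalization, with an offset of 0 and without dim probe sets. The unadjusted t-test criteria of the methods were met by 13, and by 0 after adjustment. Leaving out D8 and 0292 was chosen after the data had been seen. Leaving out single dogs gave 0 to 9 lower, with 5 without D8 and 9 without 1111. Unadjusted lower calls numbered 56 with scaling to the hybridization controls and 24 to 36 in the other settings, against 32, and 56 of the 65 probe sets remained to be tested without dim ones. Unadjusted higher calls numbered 0 without quantile normalization, with median centring and with scaling to the hybridization controls, 2 with cyclic loess and with an offset of 64, 3 without D8 and 0292, and 0 to 2 with single dogs left out, and probe sets higher in every DM dog numbered 1 with cyclic loess, 3 without D8 and 0292 and 0 to 2 with single dogs left out. The 26 probe sets lower in every DM dog became 20 to 38 over the settings, and 6 of them overlapped without quantile normalization.

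The median difference of −1.37 was −3.61 with scaling to the hybridization controls and −1.94 over gene means. Other scalings moved the median of all probe sets from 0.06 to 0.34 (no quantile normalization), −0.25 (median centring), 0.02 (cyclic loess) and −1.65 (hybridization controls), and relative to it the members lay at −1.57, −1.57, −1.17 and −1.95, against −1.42. The pair COX4I2 minus COX4I1 differed by 2.82 with an offset of 64 (exact permutation P = 0.0286), the smallest value that test can give, in a pair with dim values. Signs turned for SDHD without quantile normalization (0.11), for ATP5F1C without it (0.74) and with median centring (0.15), for UQCRH in the same settings (0.64 and 0.048), for SDHAF4 with median centring (−0.070) and hybridization control scaling (−1.91), for COA6 in the latter (−0.82), for COA5 with median centring (−0.54), cyclic loess (−0.17) and hybridization control scaling (−2.38), and for COX6A2 with median centring (−5.1e-05), hybridization control scaling (−1.43) and without D8 and 0292 (−0.55). With single dogs left out, the differences of SDHD ran from −0.17 to 0.017, of COX6A2 from −0.31 to 0.56, of ATP5F1C from −0.22 to 0.024 and of COA5 from −0.071 to 0.13. The causes were not tested. With 4 arrays per group, differences near the SE of 0.53 to 1.16 were not detectable. No paired analysis was possible because the groups hold different dogs and the labels match no control dog to a DM dog.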
